A study of Homo sapiens with 16 samples.

Results

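Interferon response and antigen presentation were followed through 40 named genes in LNCaP-1F5 cells, a derivative of the LNCaP prostate cancer line that carries an introduced glucocorticoid receptor. The 40 comprised 19 antiviral effectors, 8 sensors and transcription factors, 5 genes of the class I molecule, 2 class II accessory genes and 6 genes that supply peptides. Each gene was read on each of 2 array sets through its best detected probe, the probe with a detection p under 0.01 on most arrays. A probe carrying the gene's symbol was found for 39 of the 40 in either set, among 18849 and 20046 genes with such a probe. STAT2 had none and was not analysed here.

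Total RNA was hybridised to 16 Illumina HumanHT-12 arrays, 8 of version 3 and 8 of version 4. The cells were either parental or, as labelled, depleted of the transcription factor FOXA1 by a pool of siRNAs (siFoxA1). All groups spent 3 days in medium with charcoal-stripped serum, which lacks most steroids. Vehicle or 100 nM hormone was then given for 24 hours, either the androgen 5α-dihydrotestosterone (DHT, version 3, the DHT set) or the glucocorticoid dexamethasone (DEX, version 4, the DEX set). Parental and siFoxA1 cells, each with vehicle and with hormone, gave 4 labelled groups per set. Each group had 2 arrays, replicate 1 and 2, which the submitters call biological duplicates. All groups were of this 1 cell line in culture, and no control with a non-targeting siRNA is named in the labels.

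The array titles disagreed with the genes that check them. FOXA1, the target of the siRNA, read 13.53, 13.60, 13.56 and 13.67 on the log2 scale on the arrays titled vehicle in the DHT set and 12.23, 12.24, 12.27 and 12.36 on those titled DHT. Its level thus followed the hormone in the title, and it differed between siFoxA1 and parental titles by 0.06 ± 0.08 (SE). FKBP5, a gene induced by androgens and glucocorticoids, read 7.75 to 8.21 on the 4 replicate 1 arrays of that set and 12.13 to 13.15 on the 4 replicate 2 arrays. In the DEX set FOXA1 read 13.36 on both parental replicate 1 arrays, 12.09 and 12.17 on parental replicate 2, 12.65 and 12.66 on siFoxA1 replicate 1 and 10.84 on both siFoxA1 replicate 2 arrays. FKBP5 read 9.20 to 9.39 on the 4 parental titles and 13.80 to 13.89 on the 4 siFoxA1 titles. For 0 of 8 arrays in either set was the most highly correlated array the other one of its labelled group (correlation over all genes 0.956 to 0.968 within groups, 0.987 to 0.992 with the nearest array). No array was moved to another group. Every comparison below is named by the words of the titles, and what the cells of an array had received cannot be told from them.

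All 10 prostate luminal markers were detected in both sets, and no basal marker with a probe was. On DHT titles 2 of the luminal markers were called higher and 4 lower, against 15.7% and 18.3% of all genes tested. Of 4 endothelial markers, only VWF was detected on 2 or more arrays of the DHT set, and none was detected in the DEX set. VWF was detected on the 2 vehicle replicate 2 arrays of the DHT set (7.16 and 6.81, against 4.74 to 5.23 elsewhere). Of 6 fibroblast markers, 0 were detected on 2 or more arrays of the DHT set and 1, COL1A1, in the DEX set. COL1A1 was detected on all 8 arrays of the DEX set, at 6.09 to 7.16, and was called in no comparison of titles. Of 11 leukocyte markers with a probe, CD68, a lysosomal protein that is abundant in macrophages, was detected on all 8 arrays of each set. PTPRC, CD14, CD3E and CD74 were detected on no array, and MS4A1 on 1 array of the DEX set. CD68 moved with the titles: it read 6.10 to 7.08 on vehicle and 8.31 to 9.89 on DHT titles of the DHT set, a difference of 2.56, and was 0.99 higher on replicate 2. The part of these markers in the results below was not tested. The mean signal of an array lay between 390.5 and 528.1 units in the DHT set and between 597.4 and 683.1 in the DEX set. All arrays of a set carry 1 chip number in the labels, so no batch within a set could be separated.

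Interferons are secreted when pattern sensors such as RIG-I (DDX58) and MDA5 (IFIH1) meet viral RNA. Their receptors act through JAK kinases on STAT proteins, which with IRF9 bind the interferon-stimulated response element (ISRE) of antiviral genes, and IRF1 binds closely related elements. Class I molecules, made of an HLA heavy chain and beta-2 microglobulin (B2M), show peptides to T cells. Those peptides are cut by the proteasome, whose immune form carries PSMB8, PSMB9 and PSMB10, and are pumped into the endoplasmic reticulum by TAP1 and TAP2, where tapasin (TAPBP) loads them. LNCaP cells are known for a weak response to interferons, tied to loss of the kinase JAK1.

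The letters of the ISRE core, GAAA, any 2 bases and GAAA, were searched on both strands. They were found in 20 of the 33 members with a promoter in the RefSeq table (GRCh38.p14, 300 bases upstream of the start). Of all 27305 promoters 996 held them (3.65%). The GAS motif TTCNNNGAA was in 6 of the 33 and in 7.88% of all promoters. The NF-kB core, GGG, any 2 bases and TTTCC, was in 6 of the 33 and in 1.92% of all promoters. The forkhead letters TGTTTAC were in 0 of the 33 and in 3.41% of all promoters; these 300 bases say nothing of enhancers. A match is a description of letters, and overlapping ISRE matches were merged. The windows below show this core in members on which the results turn, each read 5′ to 3′ on the strand of the gene. Capitals mark 1 match, or a run of overlapping matches, per window.

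IFI6 (chr1:27672314-27672373, minus strand): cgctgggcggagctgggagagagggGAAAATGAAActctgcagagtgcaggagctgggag

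ISG15 (chr1:1013359-1013424, plus strand): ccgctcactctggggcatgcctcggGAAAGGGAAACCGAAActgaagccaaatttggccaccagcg

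IFIT1 (chr10:89392482-89392541, plus strand): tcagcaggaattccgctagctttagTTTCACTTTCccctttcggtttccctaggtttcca

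ISG20 (chr15:88638922-88638981, plus strand): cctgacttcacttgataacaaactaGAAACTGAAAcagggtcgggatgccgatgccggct

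B2M (chr15:44711348-44711413, plus strand): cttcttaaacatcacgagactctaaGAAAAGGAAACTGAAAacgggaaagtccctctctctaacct

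TAP1 (chr6:32853798-32853863, minus strand): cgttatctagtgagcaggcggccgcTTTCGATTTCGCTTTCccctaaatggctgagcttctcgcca

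TAPBP (chr6:33314079-33314123, minus strand): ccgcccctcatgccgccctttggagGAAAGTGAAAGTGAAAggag

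PSMB10 (chr16:67936851-67936896, minus strand): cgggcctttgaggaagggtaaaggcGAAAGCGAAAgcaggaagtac

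ISG15, B2M, TAP1 and TAPBP held overlapping matches, 2 in each, so that 3 repeats of the unit stand in a row. The IFIT1 window also holds a separate match at bases -103 to -94 from the start, left in lower case above. IRF1, HLA-DMA and HLA-DMB, which also differed between titles, held no ISRE core in this window, and IRF1 held a GAS match.

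Detection differed between members. In the DHT set 20 of the 39 were detected on all 8 arrays, 7 on 2 to 7 arrays, 5 on 1 array and 7 on none. In the DEX set the counts were 25, 9, 2 and 3. Genes detected on at least 2 arrays were tested: 27 members of the DHT set and 34 of the DEX set, among 9028 and 10999 genes. IFI27 and IFIT3, both commonly used as interferon markers, and OAS2, which makes the activator of RNase L, were detected on no array of either set. IFI44L, IFIT5, OAS1 and PSMB8 were also undetected on every DHT set array. IFIT1 and DDX58 in the DHT set were detected on DHT parental replicate 1, PSMB9 on DHT siFoxA1 replicate 1, and OAS3 and IRF2 on vehicle siFoxA1 replicate 1, each there only.

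**Figure D1:**
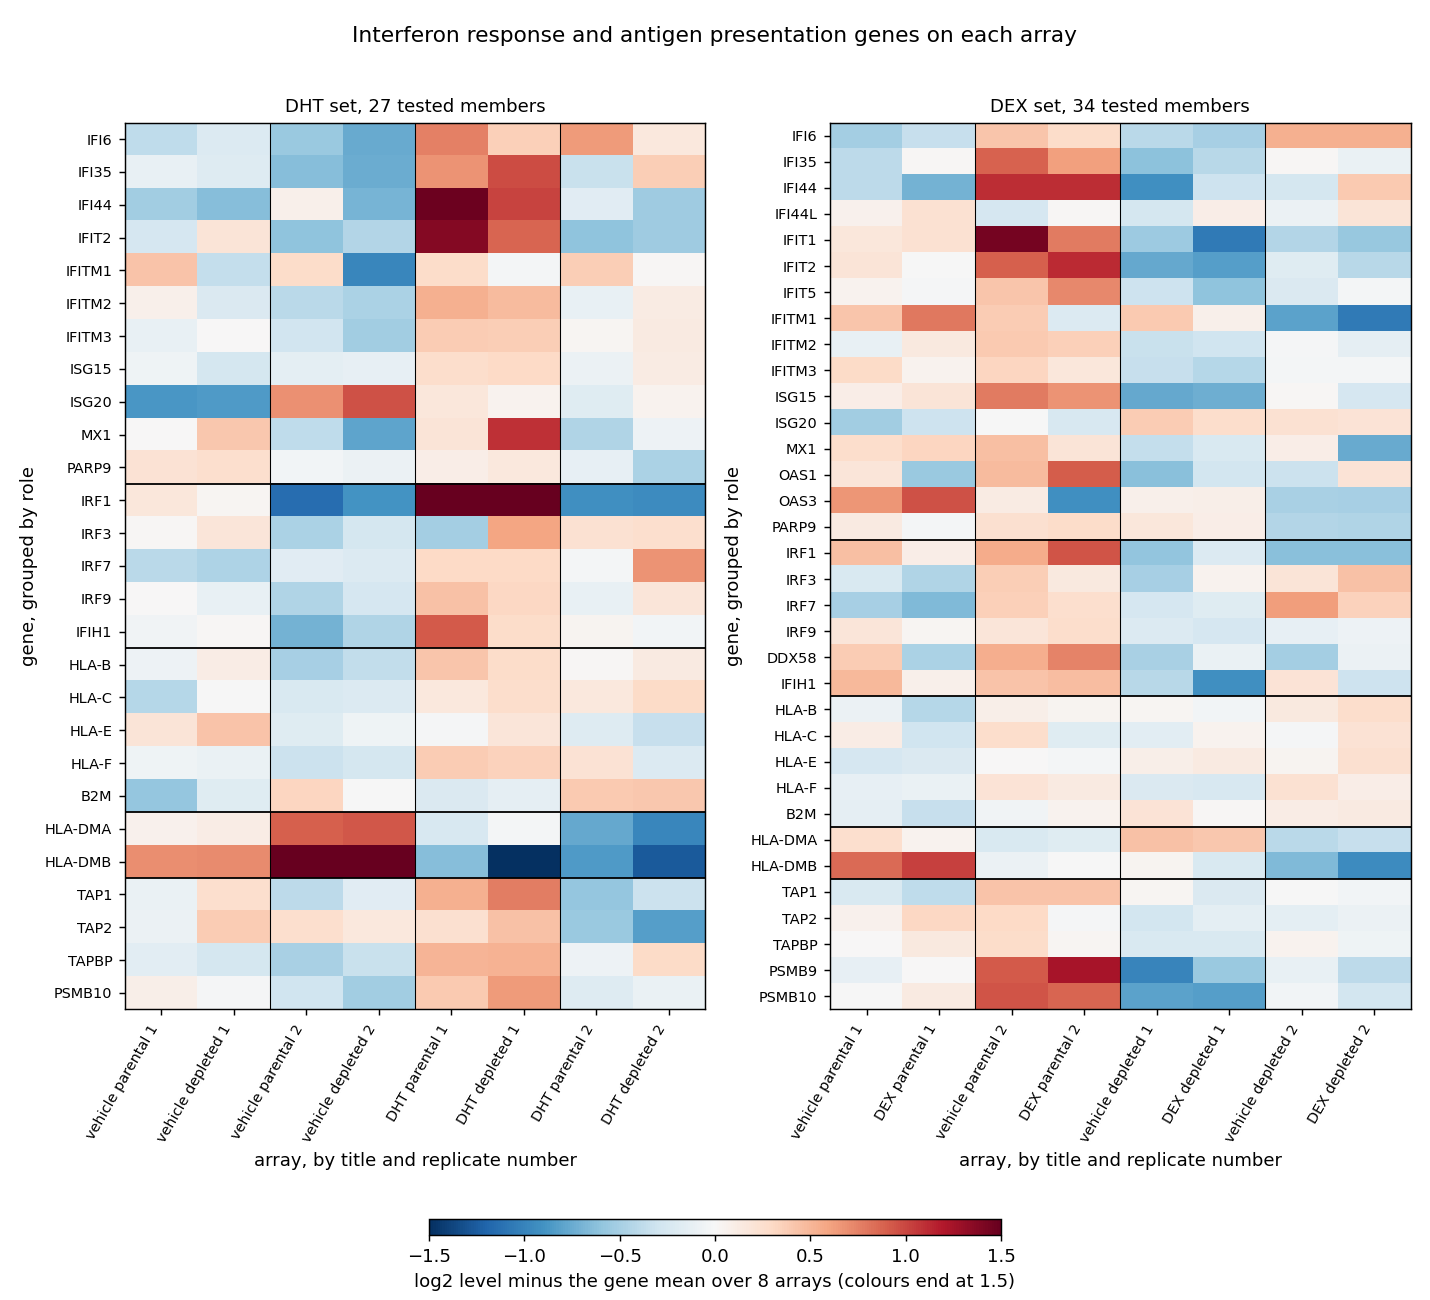
Each tested member (rows, grouped by role) on each array (columns), as its log2 level minus its mean over the 8 arrays of the set. Arrays are ordered by title and replicate number, "depleted" standing for siFoxA1 titles, and neighbouring columns within a box differ only in the title that moved 0 members past the test. Rows such as IFI35 and PSMB10 are highest in the 2 DHT replicate 1 columns of the DHT set and in the 2 parental replicate 2 columns of the DEX set.

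Titles were compared on log2 levels in limma, 4 arrays against 4, with hormone title, siFoxA1 title and replicate number as terms. Values after ± are standard errors. Adjustment for multiple testing (Benjamini-Hochberg) covered every gene tested, and genes past 0.05 are those described as called.

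In the DHT set 17 of the 27 tested members differed between DHT and vehicle titles, against 34.0% of all genes tested. Of these, 15 were higher on DHT titles, against 15.7% of all genes, and 2 were lower, against 18.3%. The median log2 difference was 0.38 over the tested members and -0.02 over all genes. IFI44, IFIT2 and IRF1 were detected on the 2 arrays titled DHT replicate 1 only and so entered the test through arrays on which they read high. Over genes detected on all 8 arrays, 12 of 20 members were higher and 1 was lower, against 16.3% and 18.0%. Without replicate number as a term, 3 members were called: HLA-DMB, IFI6 and TAPBP. With it but without the interaction, 11 were called.

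Among the effectors, IFI6, a mitochondrial and endoplasmic reticulum protein, read 11.56, 11.39, 11.74 and 11.19 on vehicle titles and 12.70, 12.59, 12.30 and 12.10 on DHT titles. The groups did not overlap, and the difference was 0.95 ± 0.09 (1.93-fold, adjusted p = 7.52e-09). A further probe of IFI6 gave 0.93. IFITM3, a membrane protein that blocks virus entry, read 10.76 to 11.28 on vehicle and 11.30 to 11.66 on DHT titles, again without overlap (0.46 ± 0.09, adjusted p = 0.000191). Its neighbour IFITM2 was higher by 0.51 ± 0.09 and IFI35 by 0.84 ± 0.15, with overlapping groups. ISG15, a ubiquitin-like modifier, was higher by 0.30 ± 0.09 (adjusted p = 0.0141). IFI44 was called as well (adjusted p = 0.00655), but it was not detected on any vehicle array and its measured means, 5.85 against 4.96, give no bound above 1. MX1, a GTPase against influenza virus, and PARP9 did not pass, with 0.38 ± 0.20 and -0.17 ± 0.10.

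The factor IRF7 read 7.17 to 7.47 on vehicle and 7.61 to 8.31 on DHT titles (0.62 ± 0.15, adjusted p = 0.00253). IRF9 was higher by 0.41 ± 0.13 (adjusted p = 0.0152) and the sensor IFIH1 by 0.60 ± 0.21 (adjusted p = 0.0318). IRF1 was called higher (measured means 6.16 and 5.23, adjusted p = 0.00243). It was detected on no vehicle array and, among DHT titles, on replicate 1 alone, so no bound on the fold is given. IRF3, which acts directly downstream of the RNA sensors, did not pass (0.27 ± 0.15).

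Of the 5 class I genes 3 were called higher, against 15.7% of all genes. Both genes of the HLA-DM dimer were called lower, against 18.3%. HLA-B was higher on DHT titles by 0.42 ± 0.10 (adjusted p = 0.00135) and HLA-C by 0.43 ± 0.16 (adjusted p = 0.0373). HLA-F was called at 0.37 ± 0.14 (adjusted p = 0.0468), while a second probe of HLA-F, detected on 5 arrays, gave -0.21. HLA-E (-0.19 ± 0.16) and B2M (0.23 ± 0.09) did not pass. HLA-DMB, a chain of the HLA-DM dimer that edits the peptides of class II molecules, read 7.43, 8.34, 7.44 and 8.30 on vehicle titles and 6.09, 5.88, 4.87 and 5.47 on DHT titles. It was lower by 2.30 on the log2 scale (SE 0.20, 4.93-fold, adjusted p = 5.09e-10) and was detected on 1 of the 4 DHT arrays. Its partner HLA-DMA read 7.81, 8.64, 7.86 and 8.67 on vehicle and 7.50, 6.98, 7.72 and 6.77 on DHT titles, a difference of -1.0 ± 0.14 (adjusted p = 2.60e-06) without overlap.

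Of the peptide supply genes, TAPBP read 9.36 to 9.69 on vehicle and 9.77 to 10.37 on DHT titles (0.62 ± 0.10, adjusted p = 3.35e-05). PSMB10 was higher by 0.37 ± 0.09 (adjusted p = 0.00157), with overlapping groups. TAP1 (0.20 ± 0.10) and TAP2 (-0.35 ± 0.16) did not pass.

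**Figure D2:**
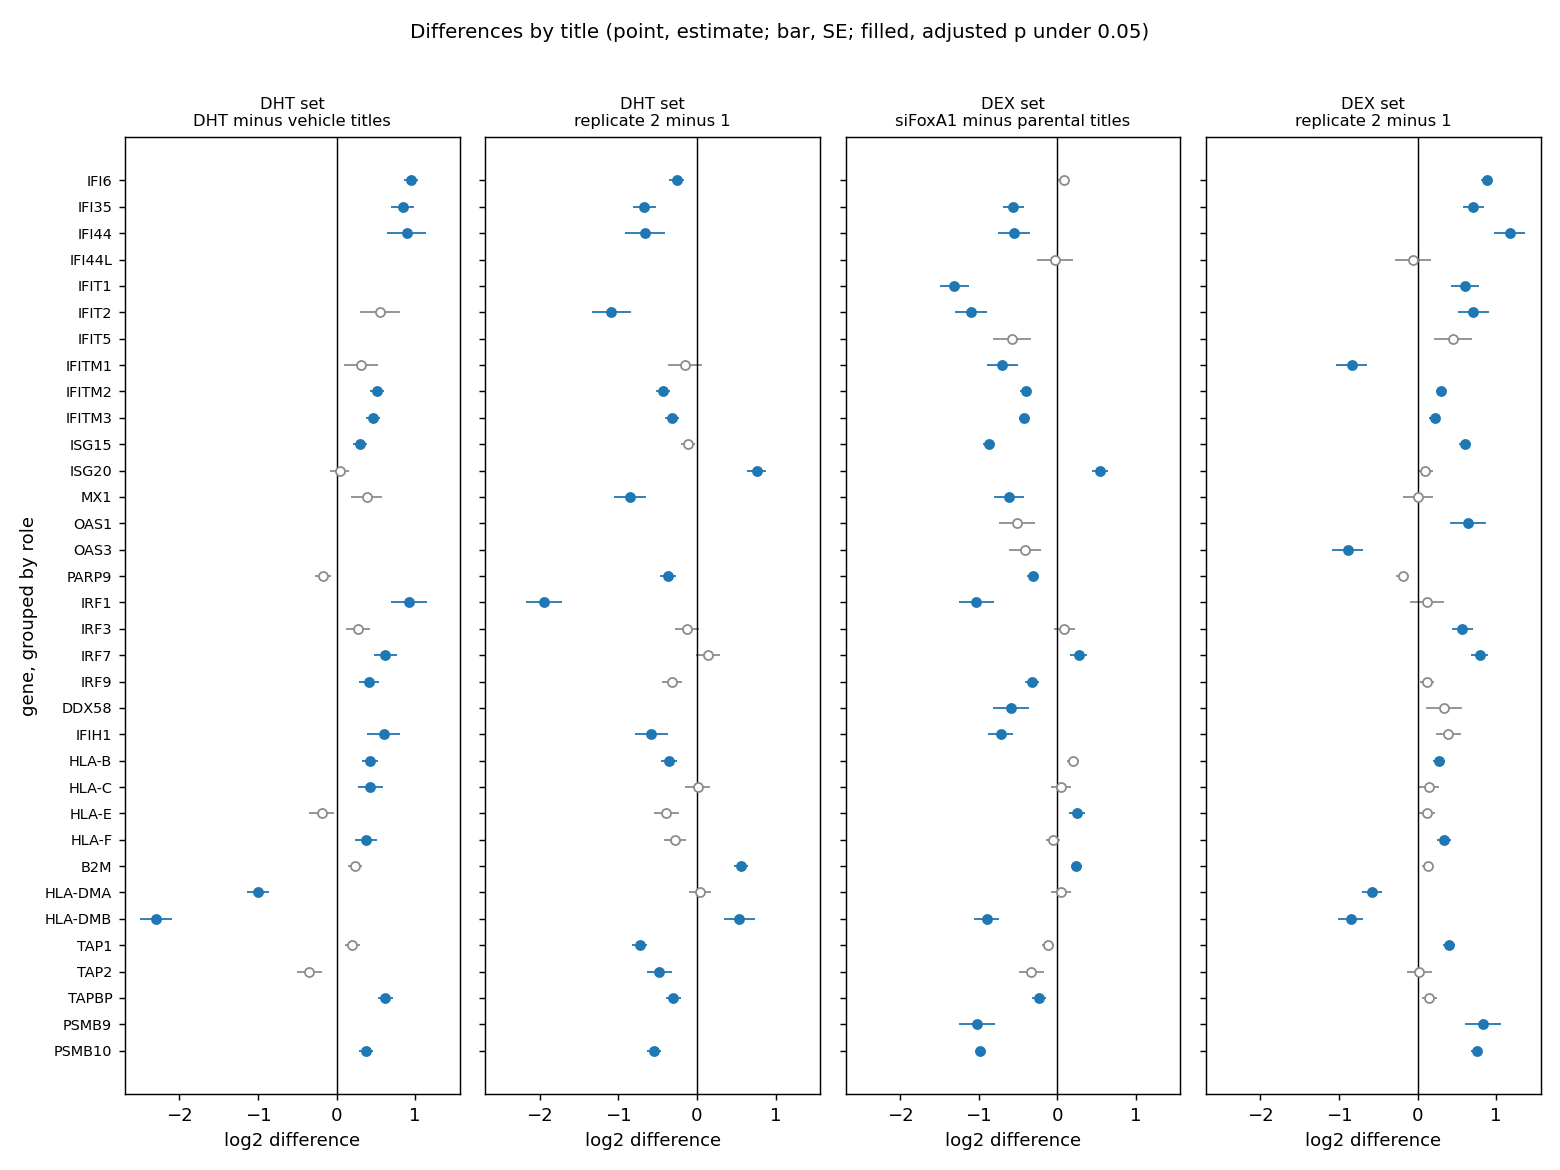
Log2 differences between titles (points) with their SE (bars) for each tested member, in the 4 comparisons in which members were called in number. Filled points passed an adjusted p of 0.05. In the DHT set most filled points lie above 0 for DHT titles and below 0 for replicate 2, with HLA-DMA and HLA-DMB on the other side in the first panel.

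Replicate number split the members of the DHT set as well. On replicate 2 arrays, on which FKBP5 was high, 18 of 27 members differed from replicate 1, against 27.8% of all genes, with 15 lower (15.0% of all genes) and 3 higher (12.8%). Without the interaction in the model 11 were called. The median difference was -0.32 over the members and -0.02 over all genes. IFI44, IFIT2, IRF1 and IFIH1 were detected on replicate 1 arrays alone, so they entered the test through the group in which they read high. Over genes detected on all 8 arrays, 10 of 20 members were lower and 2 higher, against 14.5% and 13.2%. CD68 was 0.99 higher on replicate 2.

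All 4 tested genes of peptide supply were called lower on replicate 2, against 15.0% of all genes. PSMB8 and PSMB9 were not tested in this set. PSMB10, a catalytic subunit of the immunoproteasome, read 11.94, 12.25, 11.84 and 12.50 on replicate 1 and 11.56, 11.67, 11.34 and 11.76 on replicate 2. The groups did not overlap, and the difference was -0.55 ± 0.09 (adjusted p = 2.24e-05). TAP1 read 9.73, 10.36, 10.08 and 10.60 on replicate 1 and 9.43, 9.25, 9.66 and 9.51 on replicate 2 (-0.73 ± 0.10, adjusted p = 2.01e-06). TAP2 differed by -0.48 ± 0.16 and TAPBP by -0.30 ± 0.10, both with overlapping groups. Neither of these calls was kept under every other setting.

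IRF1 read 5.87, 7.60, 5.72 and 7.50 on replicate 1 and 4.55, 4.78, 4.80 and 4.75 on replicate 2. It was not detected on any replicate 2 array and was called lower there (adjusted p = 1.84e-07). Among replicate 1 arrays it was detected on DHT titles alone, so no bound on the fold is given. IFIH1, detected on all 4 replicate 1 arrays and on no replicate 2 array, was at least 1.18-fold lower, a bound against the detection limit (adjusted p = 0.0454). Among effectors, MX1 read 6.60 to 7.69 on replicate 1 and 5.80 to 6.52 on replicate 2 (-0.85 ± 0.20, adjusted p = 0.0023). IFI35 (-0.67 ± 0.15), IFITM2 (-0.43 ± 0.09), IFITM3 (-0.32 ± 0.09) and IFI6 (-0.26 ± 0.09) were lower as well. IFIT2, which binds viral RNA, was called lower (adjusted p = 0.00185) but lay below detection on every replicate 2 array and allowed no bound above 1. PARP9 was called at -0.37 ± 0.10, while its second probe gave 0.08.

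ISG20, B2M and HLA-DMB went the other way. B2M, the light chain shared by all class I molecules, read 12.25, 12.62, 12.65 and 12.70 on replicate 1 and 12.83 to 13.24 on replicate 2. It was higher by 0.56 ± 0.09 (1.47-fold, adjusted p = 2.84e-05) without overlap, and a second probe gave 0.49. HLA-B differed by -0.36 ± 0.10 in the same comparison, the opposite direction to B2M. The other heavy chain genes, HLA-C, HLA-E and HLA-F, were not called. ISG20, an exonuclease, was higher by 0.76 ± 0.12 (adjusted p = 1.62e-05) and HLA-DMB by 0.54 ± 0.20 (adjusted p = 0.0434), both with overlapping groups.

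The difference between replicate numbers itself changed with hormone title for 6 of the 27 members, against 7.27% of all genes. For each of them the term was negative, as for 4.18% of all genes, and it was positive for 0 members and 3.09% of genes. ISG20 read 7.95 and 7.97 on vehicle replicate 1, 9.51 and 9.78 on vehicle replicate 2, 8.99 and 8.87 on DHT replicate 1 and 8.64 and 8.87 on DHT replicate 2. Replicate 2 thus stood 1.69 ± 0.17 above replicate 1 among vehicle titles and -0.18 ± 0.17 from it among DHT titles, an interaction of -1.86 ± 0.24 (adjusted p = 5.06e-06). HLA-DMA stood 0.82 ± 0.20 higher on replicate 2 among vehicle titles and -0.73 ± 0.20 from replicate 1 among DHT titles (interaction -1.55 ± 0.28, adjusted p = 0.000614). TAP1 differed between replicates by -0.36 ± 0.14 and by -1.10 ± 0.14 in vehicle and DHT titles (interaction -0.74 ± 0.20, adjusted p = 0.0195). TAP2 was called too, with an interaction of -1.09 ± 0.32. IRF1 and IFI44 were called (adjusted p = 0.0232 and 0.0186) but were detected on DHT replicate 1 arrays alone, through which they passed the filter, so the size of their interaction is not measured. Only the calls of ISG20 and HLA-DMA outlasted leaving out any 1 of the 8 arrays.

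**Figure D3:**
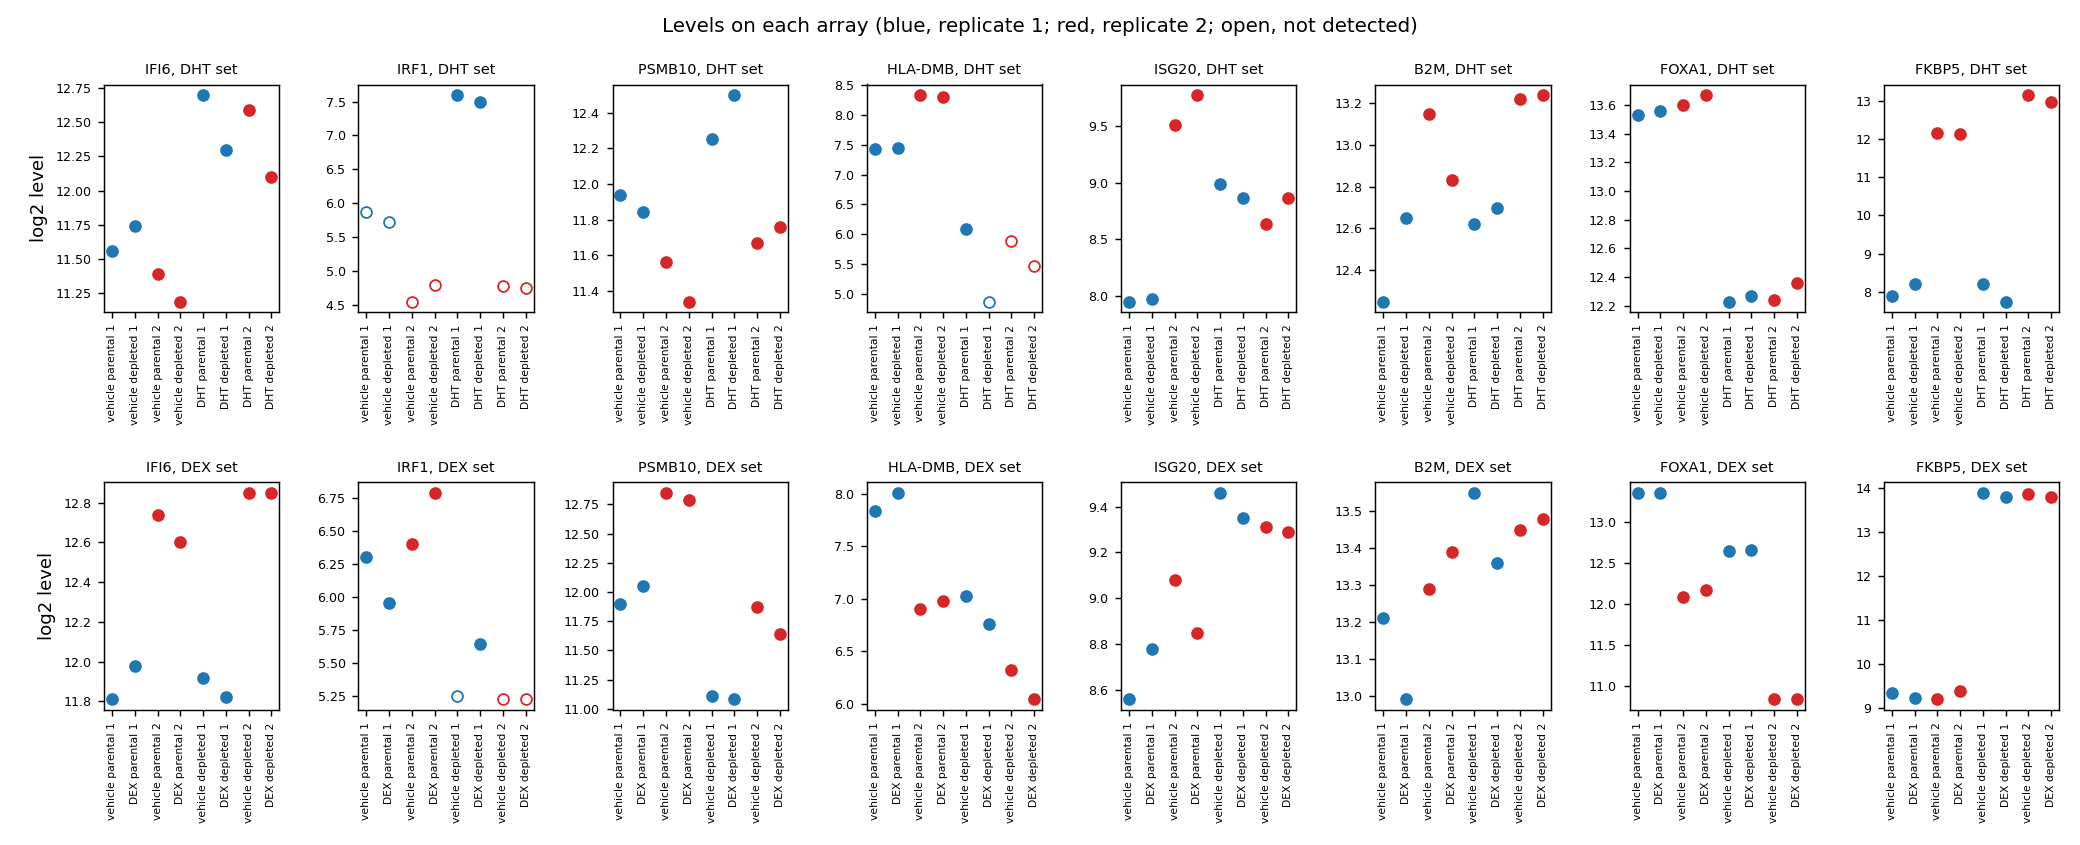
Log2 levels on each array of 6 members and of FOXA1 and FKBP5, in the DHT set (top) and the DEX set (bottom). Blue points are replicate 1, red points replicate 2, and open points were not detected; "depleted" stands for siFoxA1 titles. Each panel has its own axis, which does not start at 0. IFI6 is high where FOXA1 is low in the DHT set, on DHT titles, and on replicate 2 in the DEX set. On siFoxA1 replicate 1 of the DEX set FOXA1 is lower than on parental replicate 1, while IFI6 differs by -0.03 ± 0.10. IRF1 is detected on 2 arrays of the DHT set.

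The siFoxA1 title went with little in the DHT set. No member of 27 was called in limma, 5 had an unadjusted p under 0.05, and 0.0554% of all genes were called. IFITM1, an antiviral membrane protein, was detected on the 4 parental arrays (6.42, 6.27, 6.26 and 6.36) and on none of the siFoxA1 arrays (5.63, 5.01, 5.96 and 6.01). It entered the test through the parental arrays. Its groups did not overlap, yet the difference did not pass (measured means 5.65 and 6.33, adjusted p = 0.286).

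In the DEX set the siFoxA1 title, with which FKBP5 moved, separated 22 of 34 tested members, against 45.3% of all genes. Of these, 18 were lower on siFoxA1 titles, against 25.8% of all genes, and 4 were higher, against 19.5%. The median difference was -0.40 over the members and -0.06 over all genes. Over genes detected on all 8 arrays, 12 of 25 members were lower and 4 higher, against 28.7% and 20.8%. FOXA1 was lower on siFoxA1 titles by 1.0 (SE 0.06), while FKBP5 was higher by 4.55 (SE 0.07). Without replicate number as a term 7 members were called: IFIT1, IFIT2, IFITM3, ISG15, ISG20, IRF1 and PSMB10.

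PSMB10 read 11.90, 12.85, 12.05 and 12.79 on parental titles and 11.11, 11.87, 11.08 and 11.64 on siFoxA1 titles. The groups did not overlap, and PSMB10 was lower by 0.98 on the log2 scale (SE 0.07, 1.97-fold, adjusted p = 9.5e-10). PSMB9, its partner in the immunoproteasome, was detected on the 2 parental replicate 2 arrays and was at least 1.42-fold lower on siFoxA1 titles, where it was undetected (adjusted p = 0.00113). It entered the tests of this set only through those 2 arrays, on which it read high. TAPBP was lower by 0.23 (SE 0.09, adjusted p = 0.0421), and TAP1 (-0.12 ± 0.08) and TAP2 (-0.33 ± 0.16) did not pass.

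Of the 16 tested effectors 10 were called lower, against 25.8% of all genes. ISG15 read 11.50, 12.18, 11.60 and 12.08 on parental and 10.64, 11.42, 10.67 and 11.15 on siFoxA1 titles (-0.87 ± 0.08, 1.82-fold, adjusted p = 1.18e-08). IFIT1, which binds viral RNA that lacks the host cap methylation, read 6.79, 8.06, 6.85 and 7.41 on parental and 6.08, 6.18, 5.57 and 6.06 on siFoxA1 titles (-1.31 ± 0.18, 2.47-fold, adjusted p = 6.1e-06). Neither gene's groups overlapped. IFIT2 (-1.10 ± 0.20) and IFITM3 (-0.42 ± 0.07) were also lower without overlap, and IFI35 (-0.56 ± 0.13), IFI44 (-0.55 ± 0.20) and IFITM1 (-0.70 ± 0.20) with it. Among siFoxA1 arrays IFIT2 was detected on vehicle replicate 2 alone and IFITM1 on replicate 1 alone. IFI44 was undetected on vehicle siFoxA1 replicate 1 and DEX parental replicate 1. The sizes of these differences thus rest partly on signals below detection. ISG20 was the only effector called higher, reading 8.56 to 9.08 on parental and 9.29 to 9.46 on siFoxA1 titles (0.54 ± 0.10, adjusted p = 0.000231). IFI6 did not pass (0.08 ± 0.07).

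IRF1 read 6.30, 6.40, 5.95 and 6.79 on parental and 5.25, 5.22, 5.64 and 5.22 on siFoxA1 titles, where it was detected on 1 array (-1.03 ± 0.22, adjusted p = 0.000707). The sensors IFIH1 (-0.72 ± 0.16, adjusted p = 0.001) and DDX58 (-0.59 ± 0.23, adjusted p = 0.0421) were lower, as was IRF9 (-0.32 ± 0.09). IRF7 was higher by 0.27 ± 0.11 (adjusted p = 0.0455). HLA-E, the ligand of an inhibitory receptor of natural killer cells, was higher by 0.25 ± 0.10 (adjusted p = 0.0411) and B2M by 0.24 ± 0.07 (adjusted p = 0.00554). HLA-DMB read 7.84, 6.90, 8.01 and 6.98 on parental and 7.03, 6.32, 6.76 and 6.04 on siFoxA1 titles (-0.90 ± 0.16, adjusted p = 0.000114), and HLA-DMA did not pass (0.05 ± 0.13). CD68 read 6.96 to 9.26 on parental and 9.28 to 10.58 on siFoxA1 titles.

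Replicate 2 arrays of the DEX set, on which FOXA1 was lower by 1.53 (SE 0.06), differed from replicate 1 for 20 of 34 members, against 35.7% of all genes. Of these, 16 were higher, against 17.1% of all genes, and 4 were lower, against 18.5%. The median difference was 0.28 over the members and 0.00 over all genes. Over genes detected on all 8 arrays, 12 of 25 members were higher and 3 lower, against 18.5% and 19.1%.

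IFI6 read 11.81, 11.98, 11.92 and 11.82 on replicate 1 and 12.74, 12.60, 12.85 and 12.85 on replicate 2. The groups stood apart, and IFI6 was higher by 0.88 ± 0.07 (1.84-fold, adjusted p = 4.56e-09), with 1.08 by its second probe. IFI44 read 5.94, 5.63, 5.42 and 6.02 on replicate 1 and 7.44, 7.44, 6.07 and 6.73 on replicate 2 (1.17 ± 0.20, adjusted p = 0.000143). ISG15 was higher by 0.60 ± 0.08, IFI35 by 0.71 ± 0.13, IFIT1 by 0.60 ± 0.18 and IFIT2 by 0.71 ± 0.20, each with overlapping groups. OAS1 was called at 0.64 ± 0.23 (adjusted p = 0.0377), and its second kept probe gave 0.10. OAS3, also a synthase of the RNase L activator, was lower by 0.89 (SE 0.20, adjusted p = 0.00154), as was IFITM1 by 0.84 (SE 0.20, adjusted p = 0.00221). The undetected arrays of IFI44, IFIT2 and IFITM1 named above enter these differences too.

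IRF7 read 8.13, 7.97, 8.38 and 8.45 on replicate 1 and 8.99, 8.88, 9.25 and 8.97 on replicate 2 (0.79 ± 0.11, adjusted p = 8.22e-06). IRF3 was higher by 0.57 ± 0.13 (adjusted p = 0.00168), likewise without overlap, and IRF1 did not pass (0.12 ± 0.22). PSMB10 (0.75 ± 0.07, adjusted p = 7.47e-08) and TAP1 (0.40 ± 0.08, adjusted p = 0.000739) were higher. PSMB9, which entered through 2 of these arrays, was called higher (adjusted p = 0.00777). It lay below detection on the siFoxA1 replicate 2 arrays and on every replicate 1 array, so no bound is given. HLA-B was higher by 0.27 ± 0.08 and HLA-F by 0.33 ± 0.09, the latter with -0.15 by its second probe. HLA-DMA read 8.07, 7.87, 8.26 and 8.22 on replicate 1 and 7.59, 7.64, 7.41 and 7.47 on replicate 2, a difference of -0.58 ± 0.13 (adjusted p = 0.00121) without overlap. HLA-DMB was lower by 0.85 (SE 0.16, adjusted p = 0.000298). CD68 read 6.96 to 9.39 on replicate 1 and 9.11 to 10.58 on replicate 2.

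For 2 of the 34 tested members of the DEX set (5.88%) the replicate difference changed with siFoxA1 title. That share was near the 5.09% of all genes (2.26% positive, 2.83% negative). Neither call outlasted leaving out every array in turn. PARP9 read 9.95 and 9.78 on parental replicate 1, 10.05 and 10.09 on parental replicate 2, 9.99 and 9.92 on siFoxA1 replicate 1 and 9.38 and 9.36 on siFoxA1 replicate 2. Replicate 2 differed from replicate 1 by 0.21 ± 0.12 among parental and by -0.58 ± 0.12 among siFoxA1 titles (interaction -0.79 ± 0.17, adjusted p = 0.00786). TAP1 read 9.89 and 9.74, 10.54 on both, 10.14 and 9.90, and 10.11 and 10.07 in the same order (interaction -0.65 ± 0.16, adjusted p = 0.0221).

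The DEX title separated nothing in limma. No member of 34 and 0% of all genes were called, and 1 member, IFIH1, had an unadjusted p under 0.05 (-0.35 ± 0.16, adjusted p = 0.998), against 431 of 10999 genes.

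**Figure D4:**
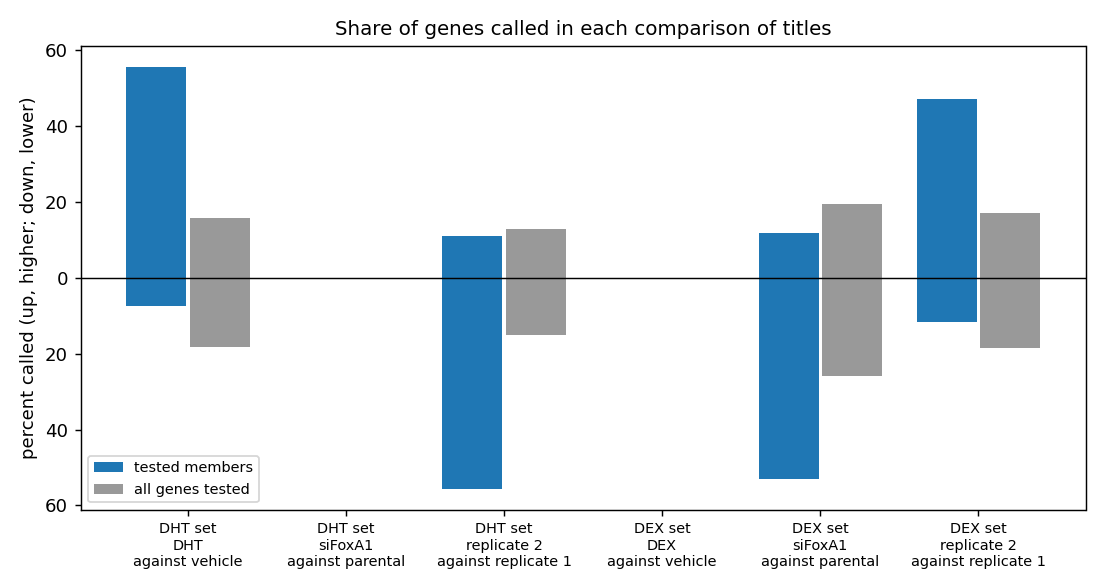
Share of the tested members (blue) and of all genes tested (grey) called higher (upward) and lower (downward) at an adjusted p under 0.05 in each comparison of titles. Blue exceeds grey upward for DHT titles in the DHT set and for replicate 2 in the DEX set, and downward for replicate 2 in the DHT set and for siFoxA1 titles in the DEX set. The siFoxA1 title of the DHT set and the DEX title show no member.

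The sets share no array, so their calls can be set side by side, a choice made after the values were seen. FOXA1 was lower on DHT titles of the first set. It was also lower on replicate 2 and on siFoxA1 titles of the DEX set. FKBP5 was higher on replicate 2 in the DHT set and on siFoxA1 titles in the DEX set.

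On DHT titles and on replicate 2 of the DEX set, 10 of the 27 members tested in both were called higher (37.0%, against 9.36% of 8795 genes): IFI6, IFI35, IFI44, IFITM2, IFITM3, ISG15, IRF7, HLA-B, HLA-F and PSMB10. They were 10 of the 15 called higher in the DHT set and 10 of the 13 in the DEX set. HLA-DMA and HLA-DMB were lower in both (7.41%, against 11.8% of genes). No member was called in opposite directions, which was rare among all genes as well. Of those, 0.478% were higher on DHT titles and lower on replicate 2, and 0.398% the reverse. Of the 20 members detected on all arrays of both sets 9 were higher in both, against 9.22% of 7105 such genes.

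On the siFoxA1 titles of the DEX set, on which FOXA1 was also lower, 10 of the 15 members higher on DHT titles were called lower (37.0% of the 27 members, against 3.56% of genes): IFI35, IFI44, IFIH1, IFITM2, IFITM3, IRF1, IRF9, ISG15, PSMB10 and TAPBP. IRF7 was higher in both (3.70% of members, against 5.84% of genes), and HLA-DMB was lower in both (3.70%, against 9.11%). Of the 20 members detected on all arrays 7 were higher on DHT titles and lower on siFoxA1 titles, against 3.55% of such genes.

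On replicate 2 of the DHT set and on siFoxA1 titles of the DEX set, 11 members were lower in both (40.7%, against 9.76% of genes): IFI35, IFI44, IFIH1, IFIT2, IFITM2, IFITM3, IRF1, MX1, PARP9, PSMB10 and TAPBP. They were 11 of the 15 called lower in the DHT set and 11 of the 15 in the DEX set. IFI44, IFIT2, IRF1 and IFIH1 passed the filter of the DHT set only through replicate 1. With detection on all arrays of both sets required, 6 of 20 members were lower in both, against 9.56% of genes. B2M and ISG20 were higher in both (7.41%, against 7.40% of genes). HLA-DMB was higher in the DHT set and lower in the DEX set (3.70%, against 1.14% of genes).

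The study's own comparisons were between labelled groups of 2 arrays, hormone against vehicle in parental and in siFoxA1 cells. In limma with no replicate term, DHT parental against vehicle parental called 0 of 27 members (0.764% of all genes, 0.421% higher and 0.343% lower), with 2 members at an unadjusted p under 0.05 and a median of 0.37. DHT siFoxA1 against vehicle siFoxA1 called 1, HLA-DMB, at least 3.06-fold lower (adjusted p = 0.0361), against 0.930% of all genes (0.410% higher, 0.521% lower), with a median of 0.40. That call was lost when any 1 of the 8 arrays was left out. The siFoxA1 groups against parental groups called 0 members and 0% of genes under vehicle and under DHT, with 1 and 0 members and 130 and 157 genes at an unadjusted p under 0.05. In the DEX set all 4 comparisons called 0 of 34 members. DEX against vehicle called 0% of genes in parental and in siFoxA1 cells, with 0 members and 70 and 64 genes at an unadjusted p under 0.05. The siFoxA1 groups against parental groups called 3.44% of genes under vehicle (2.95% higher, 0.491% lower) and 3.36% under DEX (2.86% higher, 0.500% lower), with 5 and 8 members at an unadjusted p under 0.05 and medians of -0.44 and -0.25.

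The wider pathway was read through lists of further genes. None of 9 interferon genes was detected on 2 arrays of either set. Of 10 other tested interferon-induced effectors in the DHT set, 4 were higher and 2 lower on DHT titles, against 15.7% and 18.3% of all genes. LGALS3BP, a secreted glycoprotein, read 7.14 to 8.31 on vehicle and 8.81 to 10.08 on DHT titles (1.54 ± 0.14, adjusted p = 9.6e-10), and it was 1.15 ± 0.12 higher on replicate 2 in the DEX set (adjusted p = 1.43e-07). GBP2, a guanylate-binding protein induced by interferon gamma, read 4.46, 5.84, 4.57 and 5.75 on parental and 9.10, 9.13, 8.89 and 8.90 on siFoxA1 titles of the DEX set (3.85 ± 0.15, adjusted p = 3.49e-14), with 2 of the 4 parental arrays undetected. In that comparison 3 of the 19 further effectors were higher and 2 lower, against 19.5% and 25.8% of all genes.

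Of the receptors and signalling genes, 4 of 12 were higher and 2 lower on siFoxA1 titles of the DEX set, against 19.5% and 25.8% of all genes, so the share called was near that of all genes (45.3%). The kinase JAK2 read 5.37 to 5.69 on parental and 8.11 to 8.75 on siFoxA1 titles (2.88 ± 0.15, adjusted p = 6.21e-12). IFNGR1, a chain of the interferon gamma receptor, was higher by 1.36 ± 0.09 (adjusted p = 3.03e-10), and SOCS1, an inhibitor of JAK kinases, by 2.90 ± 0.22 (adjusted p = 1.09e-09). In the DHT set on replicate 2, 1 of 9 of these genes was higher and 1 lower, against 12.8% and 15.0% of all genes. The sensing adaptor STING1 read 6.52 to 6.93 on replicate 1 and 4.60 to 5.48 on replicate 2, where it was detected on no array. It entered the test through replicate 1 (adjusted p = 1.15e-06). Of the 8 tested sensing genes 2 were lower there, STING1 included, and 1 was higher, against 15.0% and 12.8% of all genes.

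Of other antigen presentation genes, 6 of 14 were higher and 1 lower on DHT titles in the DHT set, against 15.7% and 18.3% of all genes, among them the chaperone CANX (0.80 ± 0.11, adjusted p = 1.69e-06). In the DEX set 6 of 18 were higher and 3 lower on replicate 2, against 17.1% and 18.5% of all genes, and 4 were higher and 3 lower on siFoxA1 titles, against 19.5% and 25.8%. The proteasome activator subunit PSME2 was higher on replicate 2 of the DEX set by 0.61 ± 0.07 (adjusted p = 7.49e-07). On siFoxA1 titles of that set its difference was -0.43 ± 0.07 (adjusted p = 3.73e-05). The class II chain HLA-DRA was lower on replicate 2 of the DEX set by 1.07 (SE 0.10, adjusted p = 9.29e-08), as HLA-DMA and HLA-DMB were. HLA-DRA was detected on no array of the DHT set. Of the 13 tested constitutive proteasome subunits, 1 was higher and 1 lower on DHT titles, and 1 was higher on replicate 2 in either set. On siFoxA1 titles of the DEX set 2 were higher and 2 lower, in all 30.8% against 45.3% of all genes.

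These levels are per array of bulk RNA, in which fewer cells with a transcript and less of it per cell cannot be told apart. HLA and IFITM genes have near-identical relatives, and whether their probes also bind those was not tested. The p-values of the title comparisons rest on the spread left after the fitted terms, with 3 residual degrees of freedom. That spread lies within pairs of arrays sharing replicate number and hormone title (DHT set) or siFoxA1 title (DEX set). These pairs, not the labelled duplicates, were the nearest by correlation. The interaction was chosen with earlier results of these arrays known. Tests of labelled groups rest on the spread within those groups. The labels give no culture of origin beyond the replicate number.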

How the data were processed

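Per the file headers, the deposited values are an average bead intensity and a detection p-value for each probe on each array. The intensity is linear, and its lowest values show no background removed. BeadStudio is named in the submitters' processing notes. A processed intensity table of either set was used as an alternative; 33.4% and 29.2% of its values lie below 0, and its steps are not given in the sources used here. Detection cells written with a shifted separator (353 of 390424 and 273 of 377848) were read as 1. Scanner rows and table rows were joined by their ranks over the 8 arrays (48794 and 47231 rows, 1 to 1). Symbols came from the platform annotation as supplied, in which DDX58 is RIGI. A check through gene IDs updated 0 symbols. Probe sequences were not used here.

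Signals were corrected against inferred negative controls, quantile normalized and log2-transformed after adding 16 (neqc, limma 3.58.1, R 4.3.3), each set on its own. Genes whose best probe was detected at p under 0.01 on at least 2 of 8 arrays were tested. limma with a variance trend was fitted with hormone title, siFoxA1 title, replicate number and 1 interaction (replicate number by hormone title in the DHT set, by siFoxA1 title in the DEX set), and separately with the 4 labelled groups. Adjustment was by Benjamini and Hochberg over all genes, two-sided, at 0.05. A gene undetected on all arrays of 1 group and detected on all arrays of the other was given as a lower bound. The bound was set by the lowest detected signal of each array. The fit was tested on simulated data with independent noise on each array. Of 100 genes changed by 1 and 100 changed by 2, 100 and 100 were called in the DHT set and 99 and 100 in the DEX set. The simulation lacked the close pairs of arrays seen here, so it does not test the p-values under that pairing. The precision is limited by the 8 arrays of a set.

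Values on every array are given for members called in a comparison of titles, with the highest moderated statistics first, and up to 3 genes per further list are named by the same statistic. The members, lists and comparisons were chosen with earlier results of these data known, which had shown the titles to disagree with FOXA1 and FKBP5.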

Additional observations from a re-analysis of the deposited data

Results flagged for a closer look

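For 8 results the difference between replicate numbers itself depended on another title, by the interaction term of limma at an adjusted p under 0.05 over all genes. In the DHT set, replicate number by hormone title gave -1.88 for IFI44, -1.86 for ISG20, -1.66 for IRF1, -1.55 for HLA-DMA, -1.09 for TAP2 and -0.74 for TAP1, on the log2 scale. IFI44 and IRF1 were detected on the 2 DHT replicate 1 arrays alone and passed the filter through them, so their values rest on signals below detection in the other 3 combinations of titles. In the DEX set, replicate number by siFoxA1 title gave -0.79 for PARP9 and -0.65 for TAP1. The 6 DHT set calls were 22.2% of the 27 tested members, against 7.27% of all genes. The 2 DEX set calls were 5.88% of the 34 tested members, near the 5.09% of all genes. Leaving out single arrays kept 2 of the 6 DHT set calls, HLA-DMA and ISG20, in every case, and 0 of the 2 DEX set calls. Each group held 2 arrays, too few to ask whether 1 array stood apart from its group.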

How the results depend on the processing

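Alternatives were another offset, no background correction, median scaling, the authors' values, genes detected on all 8 arrays only, the brightest probe of a gene, other models and each array left out in turn. No called member changed direction under any of them. Counts of members called moved by over 1.5 times as follows. In the additive fit without the interaction, 11 were called for DHT titles (17 with it) and 11 for replicate number in the DHT set (18 with it). With no replicate block, 3 were called for DHT titles and 7 for siFoxA1 titles in the DEX set (22 with it). For the labelled groups, DHT against vehicle in parental cells called 1 under median scaling (0 otherwise), and in siFoxA1 cells 0 with an offset of 50, without background correction or over genes detected on all 8 arrays (1 otherwise). The causes were not tested, beyond the fewer terms or genes in each fit.

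Leaving out 1 array gave 2 to 5 calls for replicate number by hormone title, 0 to 2 for replicate number by siFoxA1 title, 0 to 1 for DHT parental against vehicle parental, and 0 for DHT siFoxA1 against vehicle siFoxA1. Other counts stayed within 1.5 times: 12 to 15 for DHT titles, 12 to 14 for replicate number in the DHT set, 16 to 21 for siFoxA1 titles and 16 to 20 for replicate number in the DEX set. Calls kept under every setting, single arrays left out included, were 3 of 17, 8 of 18, 7 of 22 and 15 of 20.

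The labels do not say that a replicate number pairs arrays. With a replicate block, the labelled groups gave 2 calls for DHT against vehicle in parental cells, 7 for DHT against vehicle in siFoxA1 cells, 7 for siFoxA1 against parental under vehicle in the DEX set and 7 under DEX, and 0 in each of the other 4. With 2 numbers, the pairing could not be checked by correlation of at least 3 pairs. Low signal limits IFI44, IFIT2 and IRF1 in the DHT set and IFIT5 and PSMB9 in the DEX set, each detected on 2 arrays.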
